A study of Mus musculus with 4 samples.

Results

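The genes for the reader proteins of N6-methyladenosine (m6A), the methyl mark inside messenger RNAs, were followed in mouse leukaemia cells with and without a conditional knockout of Ybx1. They were chosen by symbol as the 5 genes of the YTH family (Ythdf1, Ythdf2, Ythdf3, Ythdc1, Ythdc2) and the 3 of the IGF2BP family (Igf2bp1, Igf2bp2, Igf2bp3). All 8 had a row among the 28141 gene symbols of the table, and 7 of them were among the 15527 genes that entered the test. Polyadenylated RNA was sequenced from leukaemic bone marrow cells of C57BL/6 mice; the labels call the cells LSCs and do not spell the name out. WT and YBX1cKO cells gave 2 libraries each, 4 in all; the driver of the deletion, the leukaemia oncogene and the age of the mice are not stated in the sources used here. Whether a replicate is its own animal is not stated either, and the p-values therefore rest on a spread between libraries that may be technical.

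Proteins with a YTH domain hold the methylated base in an aromatic pocket. YTHDF1, YTHDF2 and YTHDF3 act in the cytoplasm, where YTHDF2 brings the CCR4-NOT deadenylase to bound messages and YTHDF1 and YTHDF3 have been linked to translation and decay. YTHDC1 acts in the nucleus on splicing and export, and YTHDC2 is a helicase known for its part in meiosis. IGF2BP proteins bind RNA through KH domains and are known for prolonging the life of their messages; Igf2bp1 and Igf2bp3 are mainly genes of the embryo, whereas Igf2bp2 stays active in adult tissues. YBX1, an RNA-binding protein with a cold-shock domain, has been described in human leukaemia cells as a partner of IGF2BP proteins.

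The annotated transcripts of the readers were compared first to see whether reads could be assigned to one paralog. In the annotated transcripts, 0 stretches of 50 bases were shared between any of the 8 genes. The longest identical runs between the longest protein-coding transcripts of the YTHDF genes were 22 bases for Ythdf1 and Ythdf2, 17 bases for Ythdf1 and Ythdf3 and 17 bases for Ythdf2 and Ythdf3, all within coding sequence. Igf2bp2 and Igf2bp3 had a run of 28 bases, nearly all A and not all coding. The runs were read from the GENCODE M21 transcripts of GRCm38. They bear on exact matching of reads and do not measure how alike the paralogs are as a whole. Those shown have the identical bases in capitals and their neighbours in lower case. The Ythdf1 and Ythdf2 run is first, then Ythdf1 and Ythdf3, then Ythdf2 and Ythdf3, and last the 20-base coding run of Igf2bp1 and Igf2bp2.
Ythdf1: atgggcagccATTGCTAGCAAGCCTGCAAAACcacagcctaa
Ythdf2: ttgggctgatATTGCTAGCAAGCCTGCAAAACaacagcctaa
Ythdf1: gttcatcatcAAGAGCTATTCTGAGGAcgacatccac
Ythdf3: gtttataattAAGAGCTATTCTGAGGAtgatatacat
Ythdf2: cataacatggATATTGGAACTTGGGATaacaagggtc
Ythdf3: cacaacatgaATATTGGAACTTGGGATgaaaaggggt
Igf2bp1: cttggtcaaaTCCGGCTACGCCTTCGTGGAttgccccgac
Igf2bp2: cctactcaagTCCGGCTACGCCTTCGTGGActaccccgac

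Sequence shared with genes outside the families was limited. Of the 50-base stretches of Ythdf2, 7.49% also occurred in the predicted genes Gm6823 and Gm8401, whose log2 levels lay between -1.86 and -0.94 in the 4 libraries, too low to be tested. Ythdc1 shared 5.87% of its stretches with other genes, among them the lincRNA gene Gm43055 that overlaps it on the same strand. Ythdf1, Ythdf3, Igf2bp2 and Igf2bp3 shared 0 stretches with another gene. Igf2bp3 overlaps Malsu1, a gene for a factor of the mitochondrial ribosome on the opposite strand, which stood at log2 levels of 8.85 to 9.04. Whether the counting used strand is not stated in the sources used here, and reads of both genes in that overlap may not be told apart. The predicted gene Gm29202 overlaps Igf2bp1 on the opposite strand, but its log2 levels lay between -1.85 and -1.65, below those of Igf2bp1 in every library.

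The genes lie apart in the genome, on 8 chromosomes of GRCm38 in GENCODE M21. Ythdf3 spans chr3:16183212-16217037 on the plus strand, Ythdf2 chr4:132184912-132212303 on the minus strand and Ythdf1 chr2:180904377-180920949 on the minus strand. Igf2bp2 spans chr16:22059009-22163299 on the minus strand and Ythdc1 chr5:86804221-86836659 on the plus strand. Igf2bp1, Igf2bp3 and Ythdc2 lie on chromosomes 11, 6 and 18. The members differ in the length after the coding part: the annotated 3′ untranslated region was 6340 bases in Igf2bp1, 3062 in Ythdf3, 2015 in Ythdf2 and 754 in Ythdc1, with a median of 1075 bases over 12095 tested protein-coding genes. GGACT, a frequent core of m6A sites, occurred 5 times in the transcript of Ythdf2 (1.21 per kilobase) and 1 time in that of Ythdf3 (0.20 per kilobase). The median was 1.05 per kilobase over the same genes. Igf2bp2 had 1.28 per kilobase and Igf2bp1 1.19, and Ythdf1, Ythdc2, Igf2bp3 and Ythdc1 had 0.31 to 0.61. A match shows the letters only, not methylation.

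Values are given as log2 levels, which are the deposited log-scale values times 0.693. That factor was chosen because it brings replicate noise close to counting noise. Read as plain log2, every log2 difference would be 1.44 times as large while its p-value stayed the same. Ybx1 itself, the check of the labels, stood at log2 levels of 9.31 and 9.41 in WT and 8.19 and 8.13 in cKO, and both cKO libraries lay below both WT libraries. It fell 2.29-fold (log2 fold change -1.20, SE 0.08, limma adjusted p = 1.1e-11). Of the 8 stem and progenitor markers 5 could be read, and Kit, Cd34 and Meis1 were not analysed here. Of those 5, 3 were lower and 0 higher in cKO, where 17.8% of all tested genes were lower and 19.5% higher. In either direction 33.0% of genes were called near the level of Ly6a, 72.6% near Gata2 and 78.0% near Mecom. Mecom, a regulator of stem cells, was among the lower ones. It had log2 levels of 11.72 and 11.71 in WT and 11.07 and 11.15 in cKO.

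Among the cytoplasmic YTH readers, 1 gene rose in cKO and the most abundant one lay at the edge of the threshold. Ythdf3 had log2 levels of 9.15 and 9.16 in WT and 9.51 and 9.40 in cKO. Both cKO libraries lay above both WT libraries, which differed by little. The rise was 1.23-fold (log2 fold change 0.30, SE 0.07, 95% interval 0.16 to 0.44, limma adjusted p = 0.0011). When the prior variance was not allowed to follow the level, the call was lost at an adjusted p of 0.093.

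Ythdf2 had log2 levels of 11.94 and 11.92 in WT and 11.83 and 11.87 in cKO. Both cKO libraries were lower, by a margin of a few hundredths of a log2 unit. The log2 fold change was -0.09 (SE 0.03, 95% interval -0.15 to -0.02), a ratio of 1.06, with an unadjusted p of 0.019 and a limma adjusted p of 0.0501, which did not pass the threshold of 0.05. The value changed with the scaling: the log2 fold change was -0.20 under quantile normalization (adjusted p = 3.7e-05) and -0.02 when the libraries were shifted to a common median (adjusted p = 0.66). Without Ybx1 cKO replicate 2 the log2 fold change was -0.10, and without WT replicate 1 it was -0.08. A fit that leaves out a library has 1 left in that group. Its spread comes from the other group and the prior variance.

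Ythdf1 had log2 levels of 6.49 and 6.59 in WT and 6.72 and 6.77 in cKO. Its groups did not overlap either, with cKO higher, but the difference did not pass the test (log2 fold change 0.21, SE 0.16, 95% interval -0.13 to 0.54, limma adjusted p = 0.37).

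**Figure D1:**
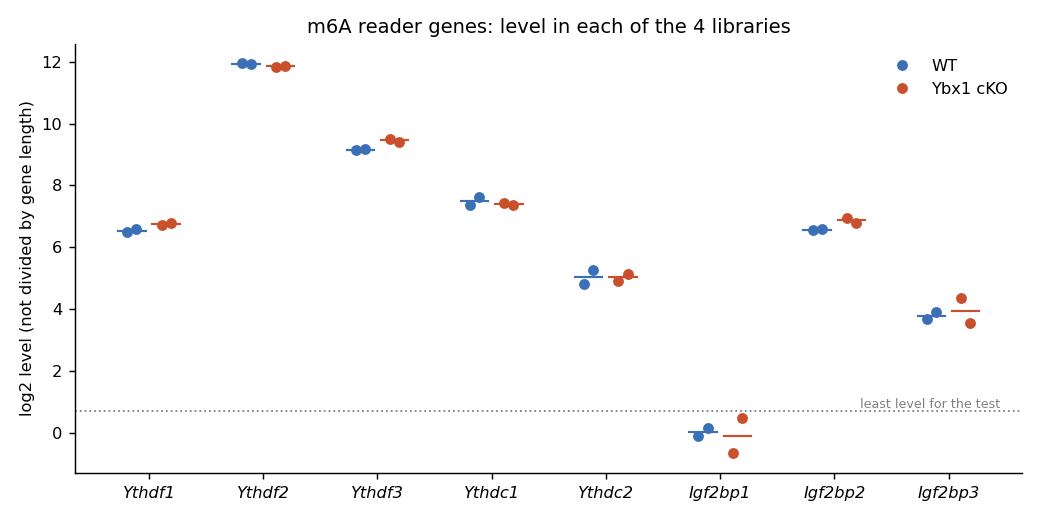
Log2 level of each m6A reader gene in the 2 WT (blue) and 2 Ybx1 cKO (orange) libraries, with a line at each group mean and a dotted line at the least level for the test. Ythdf2 is highest at about 11.9 in all libraries, both cKO points of Ythdf3 sit above its WT points, and Igf2bp1 lies below the dotted line.

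Of the YTHDC readers neither passed the test. Ythdc1, the nuclear reader, had log2 levels of 7.38 and 7.64 in WT and 7.44 and 7.35 in cKO, and the groups overlapped. Its log2 fold change was -0.11 (SE 0.13, 95% interval -0.38 to 0.15, limma adjusted p = 0.55). Ythdc2, the helicase, had log2 levels of 4.81 and 5.26 in WT and 4.91 and 5.14 in cKO, so that both cKO values lay between the WT values. Its log2 fold change was -0.01 (SE 0.28, 95% interval -0.59 to 0.57, limma adjusted p = 0.99), an interval that leaves room for changes of up to 1.5-fold in either direction.

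None of the IGF2BP genes passed the test. Igf2bp2 had log2 levels of 6.55 and 6.58 in WT and 6.96 and 6.79 in cKO. Both cKO libraries were above both WT libraries, and the log2 fold change of 0.31 was as large as that of Ythdf3, but its SE was 0.16 (95% interval -0.02 to 0.64, limma adjusted p = 0.14). Igf2bp3 had log2 levels of 3.68 and 3.90 in WT and 4.35 and 3.54 in cKO. The cKO libraries lay on either side of the WT libraries (log2 fold change 0.16, SE 0.38, 95% interval -0.63 to 0.94, limma adjusted p = 0.80), and the difference ranged from -0.25 without Ybx1 cKO replicate 1 to 0.56 without Ybx1 cKO replicate 2. Igf2bp1 was below the least level for the test in every library, at log2 levels of -0.09, 0.15, -0.66 and 0.48, and its change was not tested.

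The 7 tested readers were set against all tested genes. By limma 1 of the 7 rose and 0 fell, where 37.4% of all tested genes were called, 19.5% higher and 17.8% lower. At an unadjusted p under 0.05 Ythdf2 was lower as well. The groups did not overlap for 4 of the 7 readers, 3 of them higher and 1 lower in cKO, against 65.1% of all tested genes (32.7% higher and 32.4% lower). The median log2 fold change was 0.16 over the 7 readers and 0.00 over all tested genes. Each member was also read against the genes within 0.5 log2 units of its own level. Near Igf2bp3 13.7% of 1002 genes were called, near Igf2bp2 39.5% of 1389 genes and near Ythdf3 62.1% of 1722 genes. Near Ythdf2 79.4% of 520 genes were called, and the median size of the log2 fold change was 0.28 there, larger than the 0.09 of Ythdf2. Near Ythdf3 the median size was 0.24, below the 0.30 of Ythdf3, and 52.5% of all tested genes had a larger log2 fold change in size than Ythdf3.

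**Figure D2:**
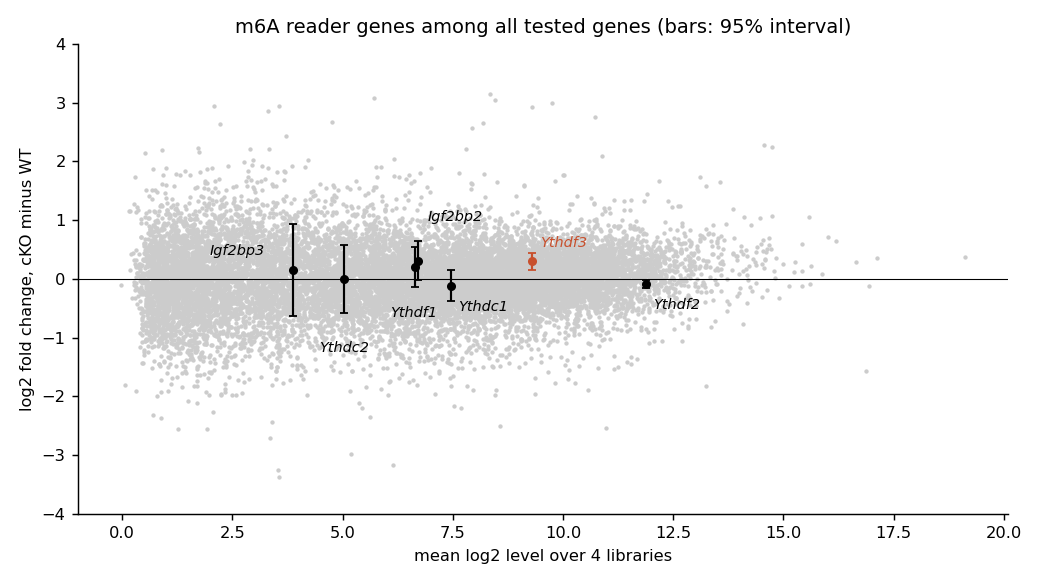
Log2 fold change (cKO minus WT) against the mean log2 level over the 4 libraries for all tested genes (grey) and the 7 tested readers, with 95% intervals. Ythdf3 (orange) is the reader that passed the test, and the intervals narrow from Igf2bp3 (-0.63 to 0.94) to Ythdf2 (-0.15 to -0.02).

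The marker lists of other marrow cells moved between the groups too. Over all tested genes 19.5% were higher and 17.8% lower in cKO. Near the levels of the tested markers of these lists 20.8% (Csf1r) to 100% (Adgre1, with 9 genes near it) were called in either direction. Of the 12 mature neutrophil markers 4 were in the table. In cKO 3 of these were higher and 1 was lower, and their summed level was 4418 and 4768 in WT and 13885 and 14002 in cKO. The size of the change was uneven: Mmp8 rose 6.72-fold and Mmp9 3.19-fold, while Cxcr2 rose 1.26-fold and Padi4 fell 1.13-fold. S100a8, S100a9, Ltf, Camp, Ngp, Ly6g, Retnlg and Csf3r were not analysed here. Of the 9 monocyte and macrophage markers 7 were in the table and 6 were tested. In cKO 5 of these 6 were higher and 0 lower. The summed level was 74241 and 74914 in WT and 128125 and 128857 in cKO. Lyz2 rose 4.75-fold, Cd14 2.25-fold, Cd68 1.71-fold, Ccr2 1.55-fold and Adgre1 1.07-fold, and Csf1r did not pass. Ly6c2 and Fn1 were not analysed here. The summed level of 3 T and NK cell markers was 1725 and 1736 in WT and 740.1 and 804.8 in cKO; all 3 were lower, and Cd3e, Cd3g, Cd4, Cd8a, Nkg7 and Klrb1c were not analysed here. Of the B cell markers 1 could be tested and was higher, of the erythroid markers 3 of 3 were lower, and of the megakaryocyte markers 2 were higher and 2 lower among 5. The part of these shifts in the reader values was not tested, and fewer cells of a type and less RNA per cell cannot be told apart in bulk samples.

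Levels of different genes were compared per kilobase of annotated exon. Ythdf2 was the most abundant reader, with back-transformed levels per kilobase of 855 ± 7.76 in WT and 806 ± 14.2 in cKO (SD, n = 2 each). Ythdf3 followed with 107 ± 0.447 in WT and 131 ± 7.43 in cKO, and Ythdf1 with 28.1 ± 1.42 and 32.3 ± 0.825 (SD, n = 2 each). Over the 4 libraries the mean of Ythdf2 was 6.99 times that of Ythdf3, which was 3.93 times that of Ythdf1. Igf2bp2, at 12.8 ± 0.198 in WT and 15.8 ± 1.33 in cKO, and Ythdc1, at 13.4 ± 1.70 and 12.3 ± 0.522, could not be ordered, since their libraries overlapped. Below them stood Ythdc2 with means of 3.74 and 3.69, Igf2bp3 with 1.70 and 1.96 and Igf2bp1 with 0.106 and 0.105. Ythdc1 has 13651 bases of exon against 3269 bases in its longest protein-coding transcript; divided by the length of that transcript its mean level was 53.7 per kilobase in place of 12.9, above Ythdf1 at 31.4.

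Within the YTHDF family Ythdf2 had a smaller share in both cKO libraries and Ythdf3 a larger one. Ythdf2 made up 86.6% and 86.2% of the family's summed level per kilobase in WT and 82.6% and 83.7% in cKO. Ythdf3 made up 10.7% and 10.8% in WT and 14.1% and 12.9% in cKO, and Ythdf1 2.72% and 2.95% in WT and 3.29% and 3.38% in cKO. For each of the 3 genes the groups did not overlap, but the shares are parts of the same sum and not separate observations. By level, the groups did not overlap for 65.1% of all tested genes. Within a library, the log2 level of Ythdf2 exceeded that of Ythdf3 by 2.79 and 2.76 in WT and by 2.32 and 2.47 in cKO, a difference between the groups of -0.38 (two-sided exact permutation test over libraries, p = 0.333, the smallest p that 2 against 2 can give). The summed level of the YTHDF family was 989.9 ± 5.89 in WT and 969.7 ± 7.64 in cKO (SD, n = 2 each), a ratio of 0.980.

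In the IGF2BP family Igf2bp2 made up 88.3% and 86.9% of the summed level per kilobase in WT and 86.7% and 90.5% in cKO, and the groups overlapped. Igf2bp3 accounted for 8.64% to 12.9% over the 4 libraries and Igf2bp1 for 0.337% to 0.878%. In the YTHDC family Ythdc1 made up 75.1% to 79.4%, a share that depends on the length used. Ythdc1 has 13651 bases of exon against 3269 in its longest protein-coding transcript, and Ythdc2 has 8878 against 7215. Divided by the length of that transcript, the share of Ythdc1 would be larger. Read as plain log2, the deposited values would give Ythdf2 93.2% of its family over the 4 libraries in place of 84.8%, and Igf2bp2 94.8% in place of 88.1%.

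**Figure D3:**
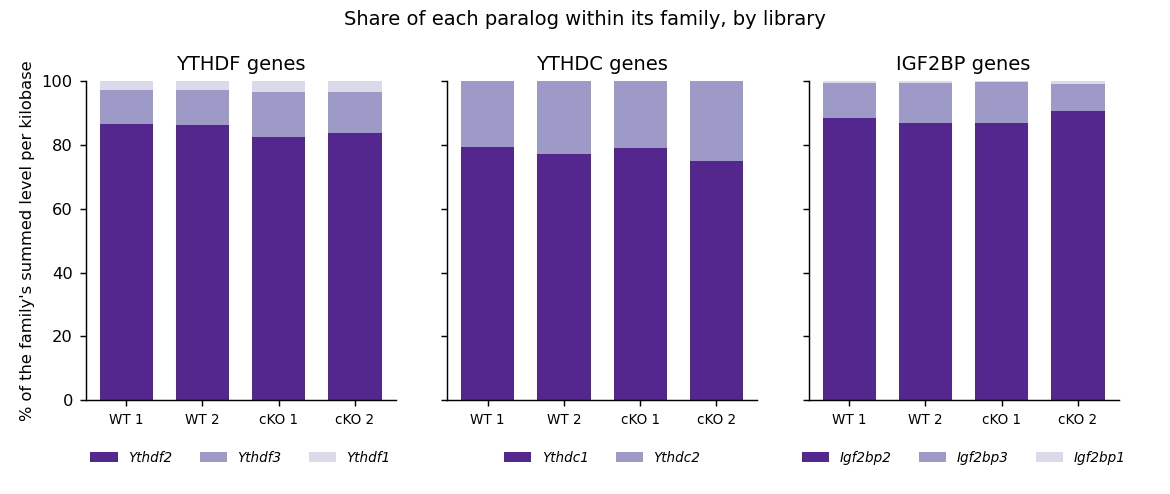
Share of each paralog in the summed level per kilobase of its family, in percent, for each library. Ythdf2 takes 86.6% and 86.2% of the WT bars against 82.6% and 83.7% of the cKO bars, and the shares of the IGF2BP and YTHDC genes overlap between groups.

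YBX1 was named for binding the Y-box, a promoter element with an inverted CCAAT at its core, so the reader promoters were searched for ATTGG on both strands and for CACGTG, the E-box that MYC binds. RefSeq promoters of GRCm38.p6, from 250 bases before to 50 after the start site, were given for 5 of the 8 genes: Ythdf1, Ythdf2, Ythdc1, Igf2bp2 and Igf2bp3. ATTGG or its complement CCAAT was found 2 times in the Ythdf1 promoter and 1 time in that of Igf2bp3, and CACGTG 1 time in Ythdf1 and 2 times in Igf2bp3; Ythdf2, Ythdc1 and Igf2bp2 held neither. Of 32851 promoters of the same length, 37.4% held ATTGG in either direction and 7.15% held CACGTG. Both promoters with matches are shown 5′ to 3′ with the matches in capitals, Ythdf1 from chr2:180920887-180921186 and Igf2bp3 from chr6:49214905-49215204, both on the minus strand. The searched motifs do not overlap each other in these windows, neither gene passed the test in cKO, and a match is not evidence of binding.
Ythdf1: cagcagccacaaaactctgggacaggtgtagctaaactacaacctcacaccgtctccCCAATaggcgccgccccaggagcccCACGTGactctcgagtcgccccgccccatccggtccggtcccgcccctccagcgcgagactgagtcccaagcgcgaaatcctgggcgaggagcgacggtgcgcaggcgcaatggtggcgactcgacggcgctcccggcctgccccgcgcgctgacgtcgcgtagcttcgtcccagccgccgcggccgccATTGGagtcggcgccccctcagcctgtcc
Igf2bp3: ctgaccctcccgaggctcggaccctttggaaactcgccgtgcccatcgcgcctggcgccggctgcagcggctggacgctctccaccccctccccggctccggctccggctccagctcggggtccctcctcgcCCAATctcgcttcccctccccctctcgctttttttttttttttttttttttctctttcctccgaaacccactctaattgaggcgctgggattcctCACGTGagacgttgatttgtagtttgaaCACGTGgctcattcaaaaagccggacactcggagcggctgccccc

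Genes of the enzymes that write and erase the mark were called about as often as all tested genes. At their own levels calls were mostly more frequent, with 14.0% of genes called near Rbm15b and 43.7% to 75.3% near the others in either direction. Of 9 tested writer genes 1 rose and 2 fell, where 19.5% of all tested genes were higher and 17.8% lower; the list's median log2 fold change was -0.04, against 0.00 over all tested genes. Mettl14, the RNA-binding partner in the core methyltransferase, had log2 levels of 8.23 and 8.17 in WT and 7.91 and 7.57 in cKO and fell (log2 fold change -0.46, SE 0.11), although the change was -0.29 without Ybx1 cKO replicate 2. Its catalytic partner Mettl3 did not pass (log2 fold change 0.07, SE 0.10). The independent methyltransferase gene Mettl16 fell by 0.32 on the log2 scale (SE 0.06), and Wtap, the adaptor of the complex, rose by 0.33 (SE 0.11). The call of Wtap was lost without WT replicate 1 (log2 fold change 0.28) and without Ybx1 cKO replicate 1 (0.28). Of the 2 demethylase genes, Alkbh5 rose by 0.19 (SE 0.07, limma adjusted p = 0.046) and Fto did not pass (log2 fold change 0.10, SE 0.05). The call of Alkbh5 was kept without Ybx1 cKO replicate 2 but lost without any one of the other 3 libraries. Its change ranged from 0.12 to 0.26 when a library was left out.

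For other RNA-binding proteins linked to the mark and for partners of IGF2BP proteins, every gene that passed the test was lower in cKO. Of 10 further genes for proteins that recognise m6A or RNA opened by it, 6 fell and 0 rose, with a median of -0.25, where 17.8% of all tested genes were lower. Calls were frequent at high levels, with 75.9% of genes called near Elavl1, 77.8% near Eif3a and 95.2% near Hnrnpa2b1 in either direction. Without WT replicate 2, 5 of the 10 fell. Rbmx fell by 0.68 on the log2 scale (SE 0.08), the initiation factor gene Eif3a by 0.41 (SE 0.04), Elavl1, the gene of the stabilising protein HuR, by 0.34 (SE 0.05) and Hnrnpa2b1 by 0.20 (SE 0.02). The change of Hnrnpa2b1 was -0.46 under quantile normalization. All 7 genes for partners of IGF2BP proteins fell, with a median of -0.37, where 17.8% of all tested genes were lower; near the levels of these 7 genes 46.4% to 77.6% were called in either direction. The count was 6 without WT replicate 2 and 5 without Ybx1 cKO replicate 2. They include Ybx1, whose fall the genotype sets, and Elavl1 again; Syncrip fell by 0.46 (SE 0.04) and Pabpc1, the poly(A)-binding protein gene, by 0.32 (SE 0.04).

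Of 13 tested genes for proteins that work with YTHDF readers in decay, 1 rose and 4 fell, with a median of -0.03, a share near the 37.4% called over all tested genes. Near the levels of these 13 genes 15.9% to 77.2% were called in either direction, for most of them more than 37.4%. The count of calls was 5 to 7 when a library was left out. The deadenylase gene Cnot8 had a log2 fold change of -0.34 (SE 0.05), Pop1, of the ribonuclease P and MRP complexes, -0.86 (SE 0.20), and Cnot3 -0.33 (SE 0.08; -0.19 without Ybx1 cKO replicate 1). Cnot9 rose by 0.16 (SE 0.04), a call lost under quantile normalization (log2 fold change 0.06). Cnot1, the scaffold that YTHDF2 contacts, did not pass (log2 fold change -0.01, SE 0.11). All 4 tested partners of YTHDC1 and YTHDC2 fell: the splicing factor gene Srsf3 by 0.71 (SE 0.05), Srsf10 by 0.22 (SE 0.04), the export receptor gene Nxf1 by 0.24 (SE 0.04) and the exonuclease gene Xrn1 by 0.50 (SE 0.12). Over all tested genes 17.8% were lower, and near the levels of these 4 genes 48.3% to 78.4% were called in either direction. Meioc and Rbm46, meiotic partners of YTHDC2, were too low to be tested.

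Transcripts that other work described as targets of the readers, in various human and mouse cells, were counted as well. These lists, like those above, were chosen with earlier results of these data known. Their counts and medians are therefore descriptions and not independent evidence. Of 11 tested IGF2BP targets 2 rose and 5 fell, with a median of -0.13, where 19.5% of all tested genes were higher and 17.8% lower. Near the levels of these 11 genes 6.75% (Hmga2) to 100% (Actb, with 5 genes near it) were called in either direction. Without WT replicate 1, 2 rose and 3 fell. Myc, whose coding region IGF2BP1 is known to protect, fell by 0.86 (SE 0.03), Bcl2 by 0.71 (SE 0.04) and the glutamine transporter gene Slc1a5 by 0.49 (SE 0.04), and Actb, the first known zipcode target, rose by 0.29 (SE 0.01). Igf2, H19 and Lin28b were too low to be tested. Of 8 transcripts described as targets of YTHDF2 or YTHDC1 in blood cells or leukaemia, 7 fell and 1 rose, with a median of -0.44, where 17.8% of all tested genes were lower; near the levels of these 8 genes 44.5% to 85.7% were called in either direction. Myc is counted here again. Without WT replicate 1, 6 fell and 0 rose. Mcm4 had a log2 fold change of -0.86 (SE 0.05), Gata2 -0.43 (SE 0.05) and Tnfrsf1b, a TNF receptor gene, -0.44 (SE 0.07). Runx1, named after its value was seen, rose by 0.25 (SE 0.07). Its call was lost without WT replicate 1 (log2 fold change 0.18) and without Ybx1 cKO replicate 2 (0.17). The part of the readers in any of these changes was not tested. Of the 26 genes of all these lists described here as having risen or fallen, Ybx1 aside, 16 lost their call when the prior variance did not follow the level. With no filter on low values Mettl14 (adjusted p = 0.10), Wtap (0.069), Alkbh5 (0.15), Cnot3 (0.13), Cnot9 (0.0501) and Runx1 (0.14) also lost theirs.

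**Figure D4:**
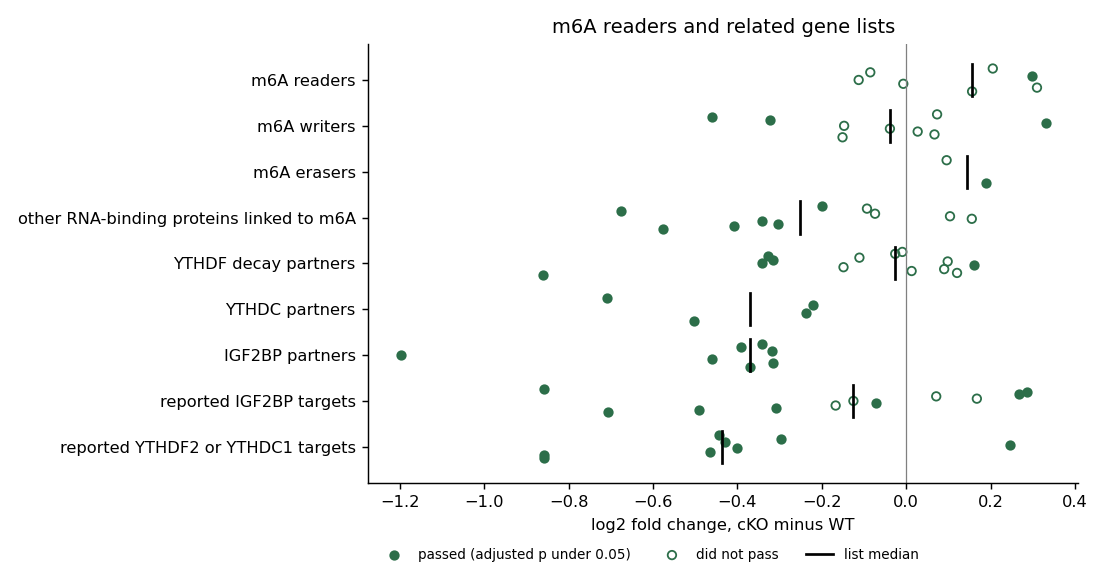
Log2 fold change (cKO minus WT) of the 7 tested readers and of the tested genes of 8 related lists; filled points passed the test, open points did not, and a line marks each list's median. The readers sit between -0.11 and 0.31 with 1 filled point, while the IGF2BP partners (median -0.37) and the reported YTHDF2 or YTHDC1 targets (median -0.44) hold mostly filled points below 0.

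The genes whose profile was nearest to that of Ythdf3 were Zbtb11 and Cfap20. Likeness was the distance between log2 levels centred on each gene's mean over the 4 libraries, among 3237 tested genes within 1 log2 unit of its level, and it was 0.0059 for Zbtb11 and 0.020 for Cfap20. Zbtb11 had log2 levels of 8.85 and 8.86 in WT and 9.20 and 9.08 in cKO. With 4 libraries and this many genes, near-identical profiles are a description only.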

How the data were processed

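The deposited table gives 1 score per gene symbol and library, on a log scale; the sources used here state neither its base nor its transformation, and values ran from -3.19 to 27.9. The submitters' processing notes name DESeq2, featureCounts, HISAT2 2.1.0, CASAVA and the build GRCm38 without saying what each did. Columns were matched to samples by title, and 0 columns were left out. The scores were multiplied by 0.693: replicate noise was then 1.10 (WT) and 1.31 (cKO) times Poisson noise, against 4.83 and 5.90 for plain log2, taking back-transformed levels as reads, which is an assumption. Depth is unknown because no counts are given; the summed back-transformed levels were 11157952 and 11074317 in WT and 12104617 and 12134026 in cKO.

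The planned test for log-scale values was used. The 15527 genes whose score reached 1 or more in 2 or more libraries entered limma 3.58.1 in R 4.3.3 (lmFit, then eBayes with its trend option), two-sided and Benjamini-Hochberg adjusted over all genes tested, threshold 0.05; 5803 were called. Levels per kilobase are back-transformed levels over the union of GENCODE M21 exons. Python 3.11.15, pandas 2.3.3, numpy 2.4.6 and matplotlib 3.10.9 made the tables and plots.

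The members and lists were chosen with earlier results of these data known. Named genes were the 8 members, Ybx1, up to 4 called genes with the smallest p of each list (2 of the highest level where none passed), and the 2 genes nearest in profile to each called member; others are given as values. Alternatives were other filters, scalings, prior variances, thresholds, lengths, the plain log2 reading and leaving out each library.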

Additional observations from a re-analysis of the deposited data

How the results depend on the processing

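Without a mean-variance trend 2267 genes were called in place of 5803, of which 2080 were shared; the other settings gave 3941 to 6653, and leaving out a library 4672 to 5810. Shifting the libraries to a common median gave 3626 higher and 2358 lower calls, in place of 3035 and 2768. Of the readers, 1 was called in the reported fit and 0 without a trend. It was 2 with a stricter filter, under quantile normalization, with a robust prior, with the replicate number as a block (replicate block) and at a threshold of 0.10, and 1 to 2 when a library was left out; each time the second was Ythdf2, lower in cKO. Ythdf2 ranged from -0.20 to -0.02 over the scalings and had limma adjusted p-values from 3.7e-05 to 0.66 over its fits to all 4 libraries. Those of Ythdf3 ran from 7.2e-05 to 0.093 over the same fits. The block gave 6026 calls in all. Deviations of same-numbered libraries correlated by 0.013 over genes, so no shared effect of the number was seen. Whether same-numbered libraries were prepared together is not stated in the sources used here. Ythdf1, Ythdc1, Ythdc2, Igf2bp2 and Igf2bp3 were not called under any alternative that was run, although Ythdc1 ranged from -0.24 to 0.02 and Ythdc2 from -0.23 to 0.21 when a library was left out. No call of a member or named gene reversed. The order of levels per kilobase placed Ythdc1 above Ythdf1 when the longest transcript or the coding length was used, and Igf2bp3 above Ythdc2 with the coding length. The plain log2 reading of the shares, their other gene lengths and the list counts without each library were chosen after seeing the data. DESeq2 was not run, as no counts were given. Depth is unknown, and the intervals of the low genes Ythdc2 and Igf2bp3 are wide.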
